A study of Mus musculus with 112 samples.

Results

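Channels that carry sodium, potassium and calcium ions across the membrane are described here by the RNA of their genes in mouse embryonic stem cells (ESCs) and the cells made from them. The genes were taken by symbol, as those that begin with Scn (sodium channels), Kcn (potassium channels) or Cacna, Cacnb and Cacng (calcium channels). Members were then chosen by measured level: a gene was kept when it reached 1 CPM (its counts scaled to the total count of the library) on average in at least 1 group of libraries. Of 25209 genes in the files, 132 symbols matched and 100 were kept. Since a measured level chose the members, a gene kept through a single group is bound to differ between that group and others, and counts over the members are given as descriptions. Kept through 1 group alone were 7 genes (Cacna1i, Cacna2d4, Kcnj11, Kcnj2, Kcnj6, Kcnk9 and Scn4b), whereas 17 reached the level in all 34 groups.

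The study measured RNA to compare loss of the histone demethylase LSD1 (gene Kdm1a) with loss of its activity alone. Libraries fell into 34 groups of 2 to 11. WT cells were V6.5 ESCs grown without serum in 2i (the MEK inhibitor PD0325901 and the GSK inhibitor CHIR99021) and LIF. LSD1KO cells lack the Lsd1 promoter and first exon, and LSD1CI cells carry endogenous LSD1 with altered catalytic residues. RCOR1KO, RCOR2KO and RCOR12DKO cells lack 1 or both of RCOR1 and RCOR2, partners of LSD1 in the CoREST complex. MLL4KO, MLL4LSD1DKO and MLL4KOLSD1CI cells lack the methyltransferase MLL4 (gene Kmt2d), alone or together with loss or inactivation of LSD1. These genotypes were sequenced as ESCs, in 11 WT, 6 LSD1KO, 2 MLL4KO and 4 libraries of each other line. Embryoid bodies (EBs, hanging drops kept 6 days in serum medium) came from WT (7 libraries), LSD1KO and RCOR2KO (2 each), and LSD1CI, RCOR1KO and RCOR12DKO cells (4 each). A second set, all in the solvent DMSO, held 2 libraries per group: WT, LSD1KO and LSD1CI cells differentiated for 4 days in serum (FBS) or for 2 days into epiblast-like cells (EpiLC, with Activin A and FGF2), WT and LSD1KO EBs, and LSD1KO ESCs. LSD1KO cells of each of these 4 cultures were also treated with A485, an inhibitor of the p300/CBP acetyltransferases, which was not given to WT cells here. A further set compared doxycycline (DOX) with no DOX in LSD1Res (DOX-inducible LSD1 in LSD1KO cells) and DKOLSD1 (the same in RCOR12DKO cells), 4 libraries each, and in LSD1KO cells, 2 each. Each mutant was represented by a few clones of 1 parental line, so that a clone and its genotype are hard to separate, and p-values measure the spread between these libraries.

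An action potential starts when voltage-gated sodium channels open, ends as they inactivate and potassium channels open, and lets calcium in through voltage-gated calcium channels. Pore-forming alpha subunits set what a channel conducts and which voltage opens it, and smaller partner subunits set its trafficking and timing. Many neuronal channel genes carry an RE1 element, the site bound by the repressor REST, which brings in RCOR proteins and LSD1 in cells that are not neurons. The name voltage-gated fits only some of the 100 genes. Among them were 8 of 10 sodium channel alpha and 4 of 4 beta subunits, 9 of 10 calcium channel alpha1 subunits with 12 of 16 partners, and 33 of 40 voltage-gated potassium alpha subunits with 6 of 11 partners. The other 28 potassium channel genes are of further families. The calcium- and sodium-activated families, beta subunits included, gave 10 of 12, inward rectifiers 11 of 15 and 2-pore leak channels 7 of 14. Most of these are not gated by voltage. In bulk RNA, fewer cells of a type and less RNA per cell cannot be told apart.

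Libraries held between 17.2 and 58.2 M counts, with a median of 39.0 M, so that 1 CPM stood for 17.2 to 58.2 counts, and ribosomal Rn45s took 8.06% to 24.9% of them. The targeted genes followed the labels. Kdm1a averaged 192 CPM in WT and 5.38 in LSD1KO ESCs, and DOX raised it from 24.3 to 1607 CPM in LSD1Res and from 268 to 3953 in DKOLSD1. Libraries of WT ESC 1 to 3 and all 6 LSD1KO ESC held no counts on genes of unplaced contigs while all others did, and the ESC comparisons therefore carry a term for these 9 libraries. WT libraries also split by Kcnj13, an inward rectifier chosen here after its values were seen. It stood at 2.90 to 9.52 CPM in WT ESC 6, 7, 10 and 11 and at most 0.0526 in the other 7, and at 7.42 to 12.2 in WT EB 1 to 3 and at most 0.0608 in WT EB 4 to 7. Kcnab1, a potassium channel beta subunit, followed the same split in WT ESCs, with 1.87 to 3.41 CPM in those 4 and 0 in the other 7. Comparisons with WT were therefore also run on parts of the WT libraries.

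The RE1 core was searched on both strands within 10 kb of every gene's start on the mm9 genome, as CAGCACC, any 2 letters and GGACAGC, 14 fixed letters in all. It was found near 139 of 25107 genes (0.554%) and near 5 of the 100 channel genes (5%), which are Cacna1b, Cacna1i, Kcnh4, Kcnt1 and Scn2a. The 5 sites are printed as the matches found among the channel genes, each 5′ to 3′ on the strand that holds the motif, with the matched letters in capitals.
Cacna1b: gtCAGCACCACGGACAGCtgc
Cacna1i: atCAGCACCACGGACAGCgac
Kcnh4: ttCAGCACCCTGGACAGCcgc
Kcnt1: ctCAGCACCGCGGACAGCtcc
Scn2a: ttCAGCACCACGGACAGCacc
The sites of Cacna1b (chr2:24617603-24617623, plus strand), Kcnh4 (chr11:100620321-100620341, minus strand) and Kcnt1 (chr2:25719592-25719612, minus strand) lie in introns, 1059, 761 and 287 bases past the start. Those of Scn2a (chr2:65458021-65458041, plus strand) and Cacna1i (chr15:80108248-80108268, plus strand) lie outside the genes, at -795 and -9410 bases from it. Of the 32 genes under the level, 1 (Kcnk12) had a match. The motif is a run of letters, and binding at these sites was not measured in the libraries.

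The 5 genes with a match did not move as a group. Over the 29 comparisons described here, Cacna1b, the pore of N-type calcium channels at nerve terminals, was called higher in 9 and lower in 2. Scn2a was called higher in 5 and lower in 0, and Kcnt1, a sodium-activated potassium channel, higher in 2. Kcnh4, a channel of the EAG family, was called higher in 2 and lower in 4, and Cacna1i in none. Rest itself averaged 425 CPM in WT ESCs and 155 in WT EBs (log2 fold change -1.57 ± 0.08 (SE)). In RCOR12DKO EBs, where 30 channels were higher, it averaged 354 CPM, a log2 change of 1.17 ± 0.08 from WT (adjusted p = 2.5e-10). Its part in the channel values was not tested.

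Per length of exon (RPKM, the CPM divided by exon length in kilobases), the highest channel levels belonged to Cacng7, Kcnk1, Cacnb3, Kcnk5 and Cacna1a. Averaged over the 34 groups, the RPKM was 11.3 for Cacng7 (a transmembrane calcium channel gamma subunit that also accompanies AMPA receptors), 11.1 for Kcnk1 (the 2-pore channel TWIK-1), 9.47 for Cacnb3 (a cytoplasmic beta subunit), 9.31 for Kcnk5 (the acid-sensing 2-pore channel TASK-2) and 7.46 for Cacna1a (the P/Q-type calcium channel pore). Each had its own peak: Cacng7 reached 24.9 RPKM in LSD1KO EpiLCs with A485, Kcnk1 33.2 in LSD1CI FBS cells, Cacnb3 21.7 in LSD1KO EpiLCs, Kcnk5 19.4 in LSD1KO ESCs and Cacna1a 13.2 in RCOR12DKO ESCs. At the other end, Kcnj2 (1.01 CPM, in LSD1KO DMSO EBs) and Kcnk3 (1.02, in RCOR1KO EBs) were just inside the rule. Cacng5 (0.948 CPM, in LSD1KO EBs) and Kcna4 (0.857, in LSD1CI FBS cells) were just outside. 

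Undifferentiated WT ESCs already held 40 channel genes at 1 CPM or more, and WT EBs held 67. EpiLCs of WT cells in DMSO held 49 and FBS cells 63. Summed over the 100 genes, the RPKM was 86.7 in WT ESCs, 131 in WT EpiLCs, 144 in WT FBS cells and 117 in WT EBs.

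**Figure D1:**
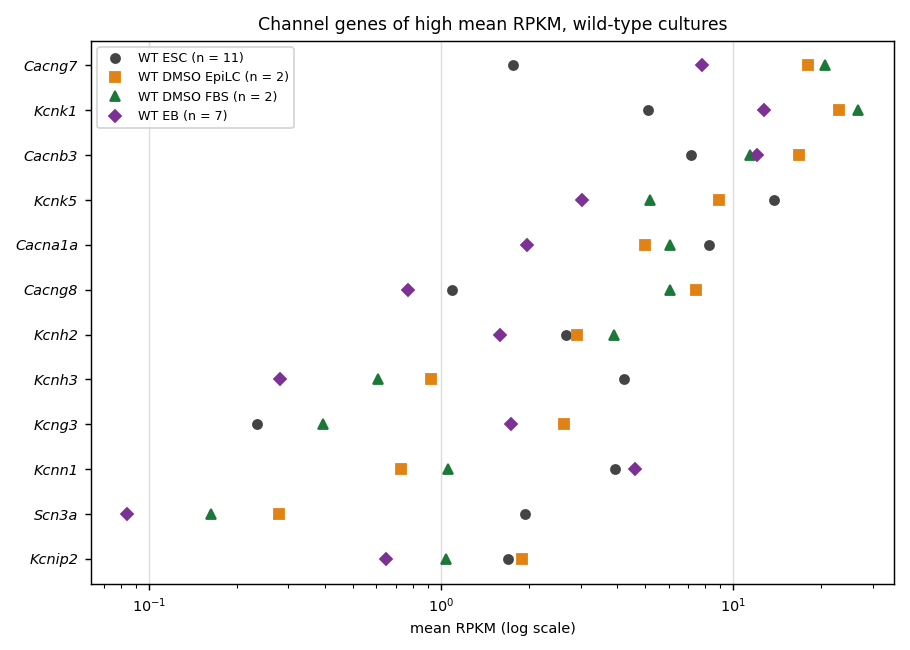
Mean RPKM (log scale) of 12 channel genes, described in the text, of the 20 with the highest mean level, in WT ESCs (11 libraries), WT EpiLCs in DMSO (2), WT FBS cells in DMSO (2) and WT EBs (7). The points of 1 gene spread over more than the difference between most neighbouring genes, so the order depends on the culture.

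Between WT ESCs and WT EBs, 44 of 90 tested channel genes were higher in EBs and 13 lower, where a call needs an adjusted p below 0.01 and a log2 fold change beyond 1 in edgeR's quasi-likelihood test. Of all genes, 20.3% were higher and 15.2% lower (35.4% in all). The median log2 fold change was 1.53 over the channels and 0.00 over all genes. Voltage-gated potassium alpha subunits gave 14 higher and 5 lower of 29, calcium alpha1 subunits 6 and 1 of 8, their partners 6 and 0 of 12, and sodium alpha subunits 4 and 1 of 7.

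Kcnj5, a subunit of the G protein-gated potassium channel of heart atria, had no count in any of the 11 WT ESC libraries and 4.97 to 14.1 CPM (median 7.81) in WT EBs, at least 1173-fold higher with 3 counts over the group as the floor. Cacna1d, an L-type calcium channel pore of pacemaker and endocrine cells, went from 0 to 0.762 CPM in WT ESCs (median 0.138) to 8.20 to 21.9 in WT EBs (median 10.9), a log2 change of 5.48 ± 0.61 (adjusted p = 1.7e-07). Kcnq5, a channel of the slow M current, went from at most 0.277 CPM (median 0.137) to between 2.97 and 19.0 (median 15.0), a log2 change of 6.17 ± 0.52 (adjusted p = 3.1e-09). In all 3 genes the ESC and EB libraries did not overlap. Lack of overlap was part of the rule that chose many of the genes named in this report, so it is given as a description. Moving the other way, Kcnk5 stood at 39.8 to 57.1 CPM in WT ESCs (median 45.1) and 8.16 to 11.5 in WT EBs (median 10.1), a log2 change of -2.26 ± 0.10 (adjusted p = 2.5e-13). Kcnh3, an EAG-family channel of forebrain neurons, fell from 8.84 to 25.5 CPM (median 15.5) to 0.315 to 1.70 (median 1.34), a log2 change of -4.00 ± 0.31 (adjusted p = 7.8e-10). These also did not overlap. WT EBs carried heart and endoderm markers (10 heart genes summed to 84.1 to 435 CPM, 7 endoderm genes to 182 to 461), and the part of such cells in the channel levels was not tested.

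In ESCs, comparisons with WT come from 1 fit that holds 11 WT libraries. Through the alignment term, LSD1KO is set against WT ESC 1 to 3, aligned like it. The other mutants are set against WT ESC 4 to 11, which they share. In LSD1KO ESCs, 9 channel genes were higher and 7 lower of 92 tested (all genes 7.56% and 5.74%), and 36 were called when the alignment term was left out. LSD1CI gave 0 higher and 4 lower (all genes 1.78% and 2.13%, 3.91% in all), and 1 in all without LSD1CI replicate 2 or without replicate 4. Among the 4 was Kcnab1, by which the WT libraries split. It had no count in LSD1CI ESCs and ranged from 0 to 3.41 CPM in WT ESC 4 to 11, so that this call depends on which WT libraries are used. LSD1KO and LSD1CI ESCs share no alignment, so each was compared through the WT libraries aligned like it. This gave 6 higher and 2 lower (4.68% and 4.12% of all genes), and 21 in all with no alignment term. The higher calls included Kcnab1, at only 0.0597 CPM in LSD1KO ESCs. RCOR2KO gave 1 higher and 3 lower (2.49% and 1.81%), or 2 in all without replicate 1, 2 or 3. RCOR1KO gave 0 calls (0.0227% of all genes), with 23 channels at an unadjusted p under 0.05 and 4 called by DESeq2. RCOR12DKO, by contrast, gave 13 higher and 11 lower (10.6% and 7.65% of all genes). Its lower calls included Kcnab1 and Kcnj13, by which the WT libraries split.

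All 3 MLL4 mutants moved channels in ESCs. MLL4KO gave 7 higher and 14 lower of 92 (3.55% and 6.89% of all genes), and 12 in all without MLL4KO replicate 1. MLL4LSD1DKO gave 14 higher and 5 lower (7.09% and 5.21%). MLL4KOLSD1CI gave 12 of each (5.56% and 7.63%). Sodium alpha subunits were called higher in 2, 3 and 4 cases and lower in 0.

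In EBs, the 5 comparisons with WT share 7 WT libraries. LSD1KO EBs had 20 channel genes higher and 8 lower of 100 tested (8.28% and 5.42% of all genes), with a median log2 fold change of 0.30 over the channels and 0.02 over all genes. The total was 16 without LSD1KO EB replicate 1 and 18 without replicate 2. LSD1CI EBs had 0 higher and 2 lower (0.993% and 1.55% of all genes, 2.54% in all), or 1 in all without LSD1CI EB replicate 3, and a median of -0.44. Compared directly, LSD1KO against LSD1CI EBs gave 27 higher and 5 lower (7.37% and 4% of all genes), a median of 0.85, and 14 in all without LSD1KO EB replicate 1. RCOR2KO EBs gave 8 higher and 11 lower (2.18% and 3.1% of all genes, 5.28% in all), a total of 10 without replicate 1, 2 without replicate 2, and 30 against WT EB 4 to 7 alone. RCOR1KO EBs gave 0 calls (0.00558% of all genes), with 7 at an unadjusted p under 0.05 and 0 by DESeq2. RCOR12DKO EBs gave 30 higher and 22 lower (14.1% and 12.3%), the lower calls including Kcnj13, by which the WT EBs split. The difference between the LSD1KO effect in EBs and in ESCs passed the test for 14 channels, 10 upward and 4 downward (7.69% and 5.18% of all genes).

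The second set of EBs, in DMSO, used other WT and LSD1KO libraries. There, LSD1KO gave 24 channels higher and 12 lower of 95 (11.7% and 7.13% of all genes), with a median of 0.58. Of the 20 genes higher in the first set, 17 were higher in the second (85% of 20, 70.8% of 24). Among them were Cacna1a, Cacna1b, Cacna1g, Cacng4, Cacng7, Cacng8, Kcna1, Kcna2, Kcna3, Kcng1, Kcnip2, Kcnj3, Scn1a, Scn2b, Scn3a and Scn9a. Of the 8 lower genes, 7 were lower again (87.5% of 8, 58.3% of 12), namely Cacna2d3, Kcnj5, Kcnk16, Kcnn1, Kcnn3, Kcnq5 and Scn7a. RCOR12DKO EBs of the first set shared 18 higher genes (60% of 30, 75% of 24) and 10 lower genes (45.5% of 22, 83.3% of 12) with LSD1KO EBs of the second. None of these overlaps was counted over all genes, so they do not show whether channels recur more often than other genes.

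Neuron, heart and endoderm markers moved with these EB comparisons. The 12 neuronal genes (such as Tubb3, Map2 and Stmn2) summed to 35.9 to 77.2 CPM in WT EBs, 309 to 384 in LSD1KO, 236 to 267 in RCOR12DKO and 141 to 192 in RCOR2KO EBs, with none at 0 in these groups. They also summed to 238 to 375 CPM in undifferentiated WT ESCs. Of the 12, 8 were called higher in LSD1KO EBs, 9 in RCOR12DKO and 4 in RCOR2KO, and 0 lower. Heart genes summed to 54.0 to 61.4 CPM in LSD1KO against 84.1 to 435 in WT EBs. Of 10 tested, 1 was called higher and 5 lower in LSD1KO EBs, and likewise 1 and 5 in RCOR12DKO EBs. In LSD1KO EBs of the second set it was 1 and 8 of 9. Endoderm genes summed to 48.5 to 49.2 CPM in LSD1KO EBs, with Afp at 0, and 16.2 to 19.7 in RCOR12DKO EBs, with Ttr at 0. The 8 markers of naive ESCs (such as Nanog, Zfp42 and Esrrb) summed to 191 to 452 CPM in WT EBs, 595 to 662 in LSD1KO and 1223 to 1340 in RCOR12DKO EBs, and to 3467 to 4408 in WT ESCs. Of the 8, 3 were called higher in LSD1KO EBs (median log2 change 1.74), 7 in RCOR12DKO (median 3.59) and 6 in LSD1KO EBs of the second set (median 2.76), with 1, 1 and 2 lower. Scn3a, Cacna1a, Kcnh3 and Kcnk5 were likewise higher in WT ESCs than in WT EBs. The part of all these cell types in the channel results was not tested.

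In FBS cells and EpiLCs, LSD1KO gave more lower than higher calls among the channels, though the counts were not tested for a difference between cultures. LSD1KO FBS cells had 6 channels higher and 10 lower of 92 (6.22% and 3.34% of all genes), 10 in all without either WT library and 9 without LSD1KO replicate 1. LSD1KO EpiLCs had 4 higher and 10 lower of 83 (6.82% and 2.66%), 8 in all without LSD1KO replicate 2. LSD1CI gave 3 and 2 in FBS (2.41% and 0.577%), 2 in all without WT replicate 2, and 0 and 1 in EpiLC (1.61% and 0.538%), 2 without WT replicate 1 and 0 without WT replicate 2 or LSD1CI replicate 2. The neuronal markers summed to 290 to 404 CPM in WT and 147 to 173 in LSD1KO FBS cells. Naive ESC markers were called higher in 6 of 8 cases in LSD1KO FBS cells and 7 of 8 in LSD1KO EpiLCs, and 0 were lower. Of 5 tested trophoblast markers, 4 were higher in FBS cells of both LSD1KO (median log2 change 3.10) and LSD1CI (3.13). The part of such cells in the channel values was not tested.

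With A485, lower calls outnumbered higher ones in all 4 LSD1KO cultures, among the channels and among all genes. The dose was higher and the treatment shorter in ESCs than in EBs, so that values of these cultures stand side by side and were not compared. In EBs, 2 were higher and 25 lower of 95 (4.26% and 9.54% of all genes), with a median log2 change of -0.78 over the channels and 0.03 over all genes. The EB total was 11 without LSD1KO DMSO EB replicate 1 and 16 without replicate 2. In FBS cells 4 were higher and 18 lower of 92 (3.52% and 9%), and 13 in all without DMSO replicate 2 or without either A485 library. In EpiLCs 5 were higher and 17 lower of 83 (7.43% and 10.2%), and 14 in all without A485 replicate 2. In ESCs 4 were higher and 11 lower of 78 (5.94% and 11.7%), a total of 19.2% against 17.6% of all genes. Voltage-gated potassium alpha subunits, which are 33 of the 100 members, gave 10, 10, 6 and 5 of the lower calls in EBs, FBS cells, EpiLCs and ESCs. The neuronal markers summed to 301 to 324 CPM in LSD1KO DMSO EBs and 105 to 108 with A485. Naive ESC markers were called higher with A485 in 5 of 8 cases in EBs (median log2 change 1.73), and lower in 6 of 8 in ESCs, 5 in FBS cells and 3 in EpiLCs. Epiblast-like markers were lower in 6 of 6 cases in EpiLCs and 4 of 6 in FBS cells. The part of these states in the channel values was not tested.

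DOX moved few channels. In LSD1Res, 1 was higher and 1 lower of 85 (0.32% and 2.05% of all genes), 1 in all without no-DOX replicate 3 or 4 or DOX replicate 3 or 4, and 4 without DOX replicate 2. With the replicate number as a block, which pairs these libraries, 1 was higher and 2 lower. In DKOLSD1, 1 was higher (0.172% of all genes), and 0 without no-DOX replicate 3 or 4 or DOX replicate 1, 3 or 4. In LSD1KO, 0 were called (0.0178% of all genes), with 4 at an unadjusted p under 0.05 and 0 by DESeq2.

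**Figure D2:**
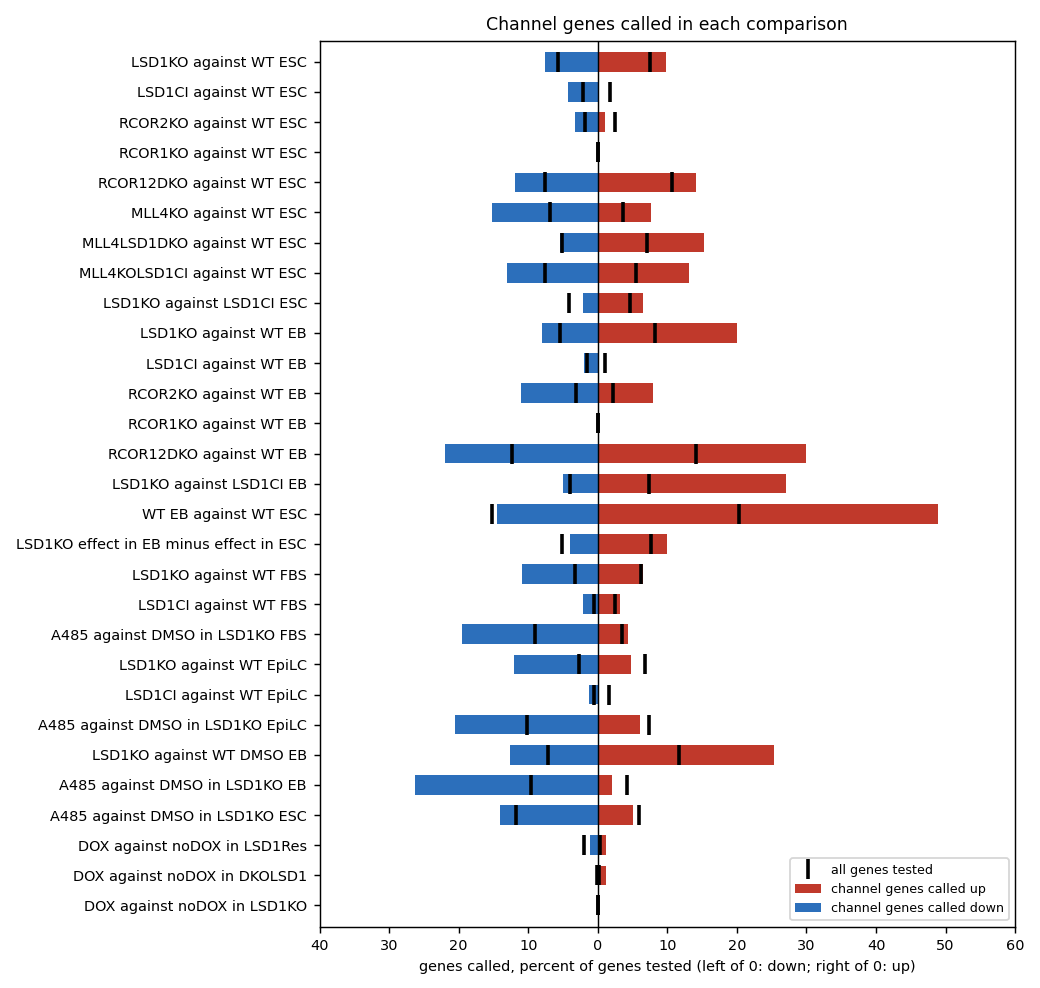
Percent of tested channel genes called higher (red, to the right) and lower (blue, to the left) in each of the 29 comparisons, with black ticks for the percent of all genes tested. Bars pass the ticks in many rows. On the higher side these include LSD1KO and RCOR12DKO EBs and WT EBs against WT ESCs. On the lower side they include the A485 comparisons in EBs, FBS cells and EpiLCs, and LSD1KO FBS cells and EpiLCs.

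Across the 29 comparisons, 94 of the 100 genes were called at least once and 61 were called in both directions. Of all 16454 genes that reach the same level in a group, 63.6% were called at least once and 37.7% in both directions. Higher calls alone were made for 18 of the 100 genes and lower calls alone for 15, against 12.3% and 13.6% of all genes at that level. The 6 genes never called were Cacna1i, Cacna2d4, Kcnab2, Kcnab3, Kcnj10 and Scn4b. Cacna1g was called most often, higher in 7 comparisons and lower in 9, and Cacng7 was higher in 11 and lower in 0, while Kcnn1 was higher in 0 and lower in 9.

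**Figure D3:**
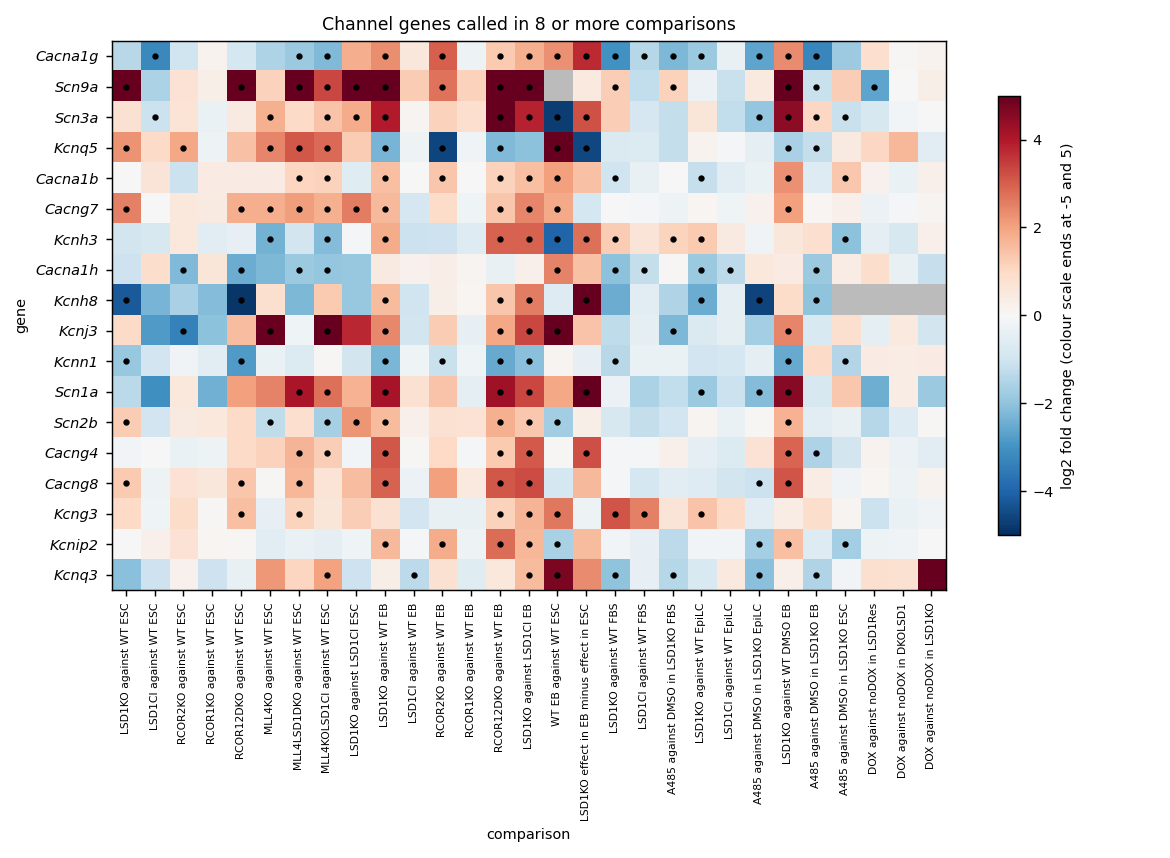
Log2 fold change (colour, cut at -5 and 5) of 18 of the 20 channel genes called in at least 8 comparisons, with comparisons along the other axis, a dot where a gene was called and grey where it was not tested. Cacng7 and Kcng3 hold no lower call and Kcnn1 no higher call, and Cacna1g turns from red in EBs to blue in FBS cells and EpiLCs.

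Among the sodium channel pores, 5 genes lie in 1 stretch of chromosome 2. In LSD1KO and RCOR12DKO EBs 3 of them (Scn1a, Scn3a and Scn9a) were called higher, Scn7a was called lower, and Scn2a was not called. In mm9 they are Scn3a (chr2:65295175-65405549), Scn2a (chr2:65458826-65605504), Scn1a (chr2:66108839-66278894), Scn9a (chr2:66318138-66473019) and Scn7a (chr2:66511483-66622967), with 39.2 kb between Scn1a and Scn9a and 38.5 kb between Scn9a and Scn7a. Scn1a, Scn2a and Scn3a encode channels of central neurons (Nav1.1, Nav1.2 and Nav1.3), Scn9a the Nav1.7 channel of sensory neurons, and Scn7a a sodium-sensing channel that voltage does not open in the usual way.

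Scn9a stood at 0.0517 to 0.586 CPM in WT EBs (median 0.279), at 31.2 and 31.7 in LSD1KO EBs and at 28.0, 33.5, 27.9 and 27.7 in RCOR12DKO EBs. LSD1CI EBs held 0.757, 0.796, 0.453 and 0.645 CPM and RCOR1KO EBs 0.342, 0.976, 0.706 and 0.545. Levels were thus high in every LSD1KO and RCOR12DKO library and near WT in LSD1CI and RCOR1KO. The log2 fold change from WT was 6.78 ± 0.39 in LSD1KO (adjusted p = 2.4e-10) and 6.65 ± 0.37 in RCOR12DKO (adjusted p = 7.8e-12), and LSD1KO exceeded LSD1CI by 5.52 ± 0.46 (adjusted p = 1.1e-07). RCOR2KO EBs held 2.60 and 1.30 CPM, above all WT libraries (log2 2.7 ± 0.43, adjusted p = 0.00022), and the adjusted p was 0.020 without RCOR2KO replicate 1. Scn9a stood in the second set of EBs at 0.206 and 0.494 CPM in WT and at 33.4 and 30.5 in LSD1KO (log2 6.46 ± 0.30, adjusted p = 2.4e-08). A485 brought LSD1KO EBs to 15.2 and 12.8 CPM, below both DMSO libraries and still above WT (log2 -1.09 ± 0.21, adjusted p = 0.0017).

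Scn9a was also the channel lowered by DOX in LSD1Res. It stood at 0.675, 1.14, 1.47 and 1.51 CPM in LSD1Res without DOX and at 0.493, 0.049, 0.0909 and 0.0942 with DOX, all DOX libraries lower (log2 -2.64 ± 0.51, adjusted p = 0.0022). With the replicate block the adjusted p was 0.0068, and with LSD1Res libraries alone in the fit it was 0.040. Without DOX the level was close to 1 CPM, and few counts lie behind the DOX values. In ESCs Scn9a was at most 0.158 CPM in WT, 4.15, 3.61, 4.86 and 4.99 in RCOR12DKO (log2 6.19 ± 0.65, adjusted p = 3.2e-10) and 3.17, 5.06, 3.73 and 5.34 in MLL4LSD1DKO (log2 6.25 ± 0.65, adjusted p = 5.1e-10). MLL4KO ESCs held 0.202 and 0.0479.

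Next to it, Scn7a went down where Scn9a went up. It stood at 1.97 to 11.9 CPM in WT EBs (median 7.41), at 1.11 in both LSD1KO EBs and at 1.26, 1.72, 0.497 and 0.822 in RCOR12DKO EBs. LSD1CI EBs (5.30, 6.09, 4.62 and 6.52) and RCOR1KO EBs (10.3, 10.6, 15.6 and 9.73) stayed within or above the WT range. The log2 change was -2.79 ± 0.52 in RCOR12DKO (adjusted p = 0.0001) and -2.71 ± 0.69 in LSD1KO (adjusted p = 0.0043). The LSD1KO call rested on both libraries, with an adjusted p of 0.051 without replicate 1 and 0.059 without replicate 2, and of 0.045 against WT EB 1 to 3 alone. DMSO EBs of the second set held Scn7a at 18.4 and 15.3 CPM in WT and 0.558 and 1.10 in LSD1KO, which did not overlap (log2 -4.44 ± 0.47, adjusted p = 1.6e-05). In WT ESCs it had 2 counts over all 11 libraries.

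Scn3a and Scn1a rose with Scn9a in mutant EBs, from different ESC levels. Scn3a fell from 14.2 to 23.7 CPM in WT ESCs (median 19.5) to 0.372 to 1.70 in WT EBs (median 0.736), a log2 change of -4.73 ± 0.28 (adjusted p = 2e-11). LSD1KO EBs held 12.9 and 12.9 CPM and RCOR12DKO EBs 39.9, 42.4, 36.3 and 33.5, so that RCOR12DKO EBs exceeded WT ESCs. Against WT EBs the log2 change was 3.98 ± 0.44 in LSD1KO (adjusted p = 1e-06) and 5.51 ± 0.41 in RCOR12DKO (adjusted p = 6.4e-10). Scn3a in the second set went from 0.514 and 0.395 CPM in WT to 9.21 and 12.7 in LSD1KO (log2 4.48 ± 0.29, adjusted p = 3e-07). With A485 it was 18.6 and 23.3, one of the 2 channels that A485 raised in EBs (log2 1.03 ± 0.22, adjusted p = 0.0033), a call that ended without DMSO replicate 1 (log2 0.81) or A485 replicate 2 (log2 0.86). In LSD1KO ESCs A485 moved Scn3a from 18.0 and 19.1 CPM to 8.64 and 9.20, at the other dose and duration (log2 -1.11 ± 0.12, adjusted p = 2.3e-07).

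Scn1a was low in WT ESCs (0 to 0.606 CPM, median 0.0687) and WT EBs (0.223 to 1.17, median 0.613). It reached 11.4 and 11.9 CPM in LSD1KO EBs and 16.0, 14.1, 11.2 and 10.3 in RCOR12DKO EBs, every library above WT. The log2 change was 4.11 ± 0.51 (adjusted p = 4e-06) and 4.23 ± 0.46 (adjusted p = 1.3e-07). Scn1a in the second set went from 0.493 and 0.148 CPM in WT to 7.0 and 9.67 in LSD1KO (log2 4.56 ± 0.47, adjusted p = 1.2e-05), and stood at 3.41 and 5.57 with A485, where the drop was not called. In MLL4LSD1DKO ESCs it reached 2.35, 3.66, 1.78 and 2.91 CPM (log2 4.08 ± 0.76, adjusted p = 3.8e-05).

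Scn2a, which has the RE1 match, did not follow its neighbours in EBs. It held 1.27 to 3.80 CPM in WT EBs (median 2.82), 2.47 and 1.79 in LSD1KO and 2.85, 3.58, 2.40 and 3.17 in RCOR12DKO EBs, ranges that overlap, and no difference was called. In ESCs it went from 0.190 to 1.29 CPM in WT (median 0.479) to 2.02, 2.22, 1.61 and 3.94 in MLL4LSD1DKO (log2 1.87 ± 0.39, adjusted p = 0.00017) and 2.83, 1.66, 1.50 and 3.83 in MLL4KOLSD1CI (log2 1.89 ± 0.39, adjusted p = 0.00014). Scn3a also rose in MLL4KOLSD1CI, with 49.7, 58.0, 53.7 and 53.3 CPM (log2 1.43 ± 0.20, adjusted p = 2.4e-07), and in MLL4KO, with 64.3 and 77.8 (log2 1.79 ± 0.24, adjusted p = 2.3e-07). MLL4KO held the highest mean Scn3a level of the 34 groups. LSD1CI ESCs lay at the low side with 11.9, 5.37, 15.1 and 5.31 CPM, which overlaps WT (log2 -1.07 ± 0.22, adjusted p = 0.00083).

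**Figure D4:**
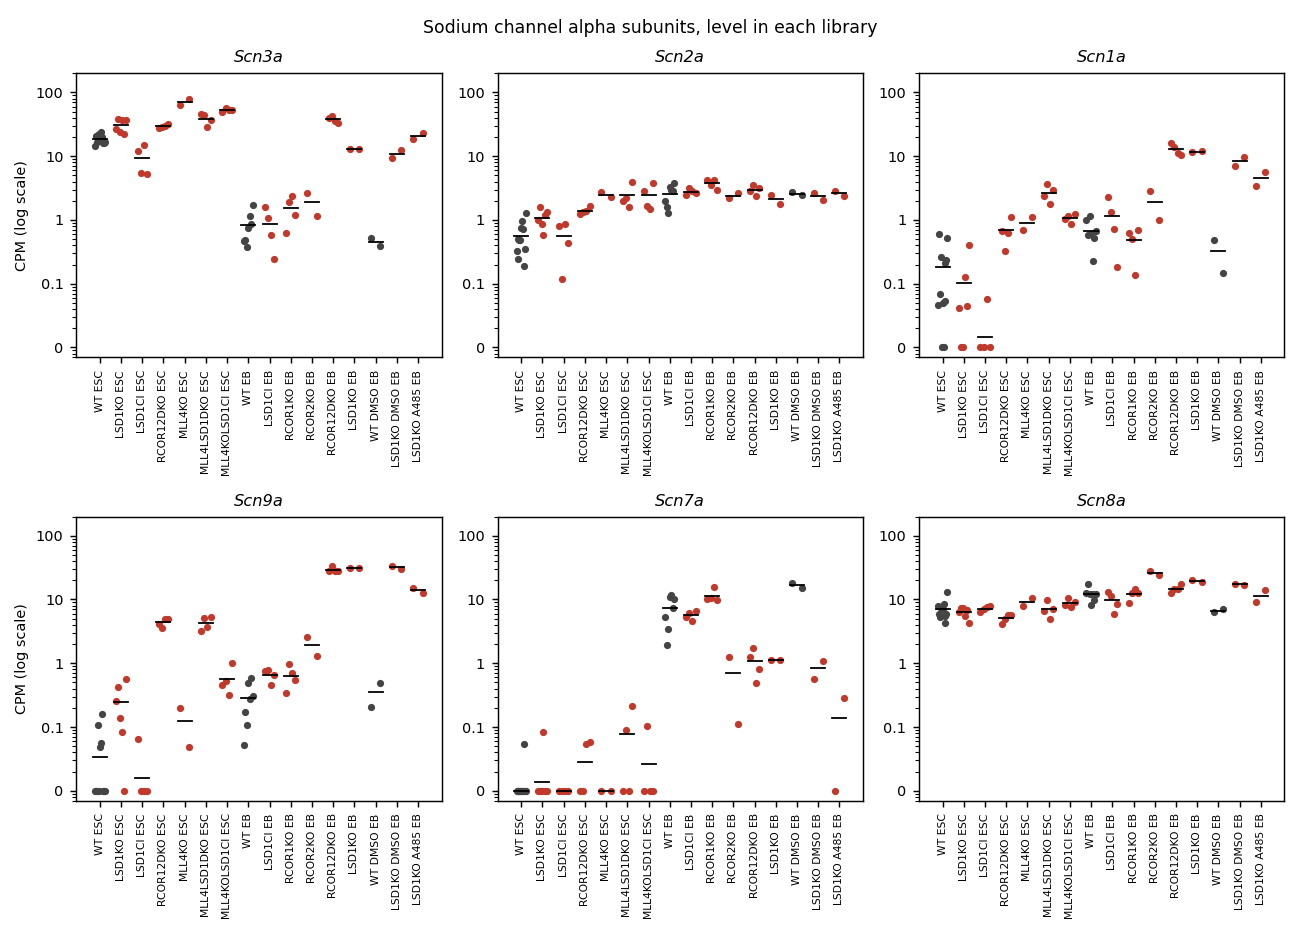
CPM per library (log scale, zeros at the floor marked 0) of Scn3a, Scn2a, Scn1a, Scn9a, Scn7a and Scn8a in 16 groups, WT in dark and mutants in red, with a black line at the group mean. Scn9a lies near 30 CPM in LSD1KO and RCOR12DKO EBs and under 1 CPM in WT EBs, while Scn7a shows the opposite order.

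Scn8a (Nav1.6, at the initial segment of axons) changed less than its relatives. It stood at 8.28 to 17.4 CPM in WT EBs (median 12.2), at 27.6 and 24.2 in RCOR2KO EBs (log2 1.05 ± 0.22, adjusted p = 0.0024) and at 20.4 and 18.7 in LSD1KO EBs, above WT but not called. In the DMSO EBs it went from 6.33 and 7.09 CPM to 17.8 and 16.7 (log2 1.28 ± 0.22, adjusted p = 0.00066). FBS cells moved the other way, from 7.67 and 6.74 CPM in WT to 2.71 and 4.13 in LSD1KO (log2 -1.08 ± 0.25, adjusted p = 0.0058). Scn4a, the skeletal muscle channel Nav1.4, held 1.47 to 12.1 CPM in WT EBs (median 1.76) and 0.479, 0.464, 0.497 and 0.567 in RCOR12DKO EBs, all below WT (log2 -2.81 ± 0.59, adjusted p = 0.00037).

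Of the sodium channel beta subunits, which modulate the pore and bind neighbouring cells, Scn2b moved most. In ESCs it held 1.51 to 10.7 CPM in WT (median 7.93) and 19.8 to 22.8 in LSD1KO (median 20.9), without overlap, and 3.85, 2.89, 3.69 and 3.74 in LSD1CI. The log2 change was 1.28 ± 0.29 for LSD1KO against WT (adjusted p = 0.00037) and 2.22 ± 0.38 for LSD1KO against LSD1CI (adjusted p = 3e-05). In EBs it went from 1.04 to 3.13 CPM in WT (median 2.30) to 8.10 and 5.09 in LSD1KO (log2 1.57 ± 0.32, adjusted p = 0.00065) and to 5.81, 7.10, 9.39 and 8.67 in RCOR12DKO (log2 1.77 ± 0.27, adjusted p = 7.7e-06). MLL4KOLSD1CI ESCs fell to 1.96, 2.69, 2.78 and 1.33 CPM, at the low end of the WT range (log2 -1.64 ± 0.28, adjusted p = 8.4e-06).

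Calcium channel pores of nerve terminals kept higher levels in mutant EBs. Cacna1a stood at 55.7 to 77.1 CPM in WT ESCs (median 67.2) and 9.44 to 26.9 in WT EBs (median 13.7), a log2 change of -2.24 ± 0.18 (adjusted p = 1.2e-09). LSD1KO EBs held 56.5 and 44.0, RCOR2KO EBs 39.0 and 57.2, and RCOR12DKO EBs 51.0, 57.2, 72.7 and 74.5, all above WT EBs, whereas LSD1CI EBs at 23.2, 17.2, 18.9 and 15.7 overlapped WT. The log2 changes were 1.71 ± 0.26 (adjusted p = 3.4e-05), 1.58 ± 0.26 (adjusted p = 0.00034) and 2.02 ± 0.21 (adjusted p = 9e-08). Cacna1a in the second set went from 8.55 and 9.66 CPM to 55.4 and 45.0 (log2 2.38 ± 0.17, adjusted p = 8e-07). A485 EBs held 34.7 and 44.6.

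Cacna1b, with the RE1 match in its intron, was up in EBs of 3 mutants and down in 2 other cultures. In WT EBs it held 4.91 to 12.6 CPM (median 6.14), in LSD1KO 22.7 and 18.3, in RCOR2KO 15.8 and 23.6 and in RCOR12DKO 15.3, 15.0, 15.9 and 19.6, without overlap with WT. The log2 changes were 1.49 ± 0.27 (adjusted p = 0.00025), 1.37 ± 0.28 (adjusted p = 0.0019) and 1.15 ± 0.23 (adjusted p = 0.0002). The second set gave 3.93 and 4.03 CPM in WT and 21.4 and 19.3 in LSD1KO (log2 2.27 ± 0.33, adjusted p = 0.00019). In FBS cells the level was 28.8 and 32.2 CPM in WT and 12.9 and 17.7 in LSD1KO (log2 -1.004 ± 0.14, adjusted p = 0.00033), and in EpiLCs 26.9 and 28.0 against 14.2 and 11.5 (log2 -1.14 ± 0.15, adjusted p = 4.6e-05). WT FBS cells and EpiLCs were thus above WT EBs, and LSD1KO cells of the 3 cultures lay closer together than WT cells did.

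Among the T-type pores, which open at low voltages, Cacna1g was called in 16 comparisons and Cacna1h in 10. Cacna1g held 3.65 to 12.8 CPM in WT EBs (median 5.73), 36.3 and 26.0 in LSD1KO, 60.4 and 41.0 in RCOR2KO and 15.3, 14.6, 14.3 and 17.3 in RCOR12DKO EBs. All mutant libraries were above WT, with RCOR2KO highest. The log2 changes were 2.34 ± 0.33 (adjusted p = 1.9e-05), 2.97 ± 0.33 (adjusted p = 5.5e-06) and 1.30 ± 0.29 (adjusted p = 0.00059). In the second set it went from 3.88 and 5.78 CPM in WT to 22.9 and 30.1 in LSD1KO (log2 2.37 ± 0.26, adjusted p = 2.3e-05), and A485 brought it to 2.01 and 3.16, under both WT libraries (log2 against DMSO -3.25 ± 0.28, adjusted p = 4.8e-06).

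In FBS cells the order of Cacna1g was reversed, with 21.3 and 25.9 CPM in WT, 2.46 and 3.29 in LSD1KO and 7.72 and 9.52 in LSD1CI. LSD1CI libraries lay between the other 2 groups. The log2 change was -3.04 ± 0.24 for LSD1KO (adjusted p = 6.1e-06) and -1.42 ± 0.22 for LSD1CI (adjusted p = 0.0014, or 0.012 without WT replicate 2). EpiLCs gave 7.04 and 4.94 CPM in WT and 1.72 and 1.69 in LSD1KO (log2 -1.85 ± 0.36, adjusted p = 0.00096), while LSD1CI held 4.75 and 4.30 and was not called. A485 lowered LSD1KO FBS cells to 0.809 and 0.415 CPM (log2 -2.26 ± 0.30, adjusted p = 0.0001) and LSD1KO EpiLCs to 0.511 and 0.0917 (log2 -2.62 ± 0.46, adjusted p = 0.00024). In ESCs Cacna1g was low throughout, at 0.563 to 1.51 CPM in WT (median 1.09).

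Cacna1h took the same direction as Cacna1g in FBS cells and EpiLCs. It held 8.66 and 9.38 CPM in WT and 2.44 and 1.95 in LSD1KO FBS cells (log2 -2.04 ± 0.24, adjusted p = 8.4e-05), and 4.21 and 4.08 in WT and 1.16 and 1.16 in LSD1KO EpiLCs (log2 -1.87 ± 0.29, adjusted p = 0.00012). LSD1CI lay between, at 3.32 and 4.41 in FBS cells and 1.78 and 1.55 in EpiLCs. Those LSD1CI changes were also called (log2 -1.19 ± 0.23, adjusted p = 0.0049, and -1.30 ± 0.27, adjusted p = 0.0053), but leaving out any 1 of the 4 libraries in either culture took the adjusted p to between 0.012 and 0.068. In LSD1KO EBs A485 moved Cacna1h from 12.0 and 15.2 CPM to 2.32 and 4.57 (log2 -1.87 ± 0.29, adjusted p = 0.00039).

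L-type pores, which serve muscle and endocrine cells among others, moved apart from these. Cacna1d held 8.20 to 21.9 CPM in WT EBs and 4.25, 4.38, 4.94 and 4.93 in RCOR12DKO EBs, all lower (log2 -1.52 ± 0.46, adjusted p = 0.0081). In the second set it went from 13.9 and 14.8 CPM to 2.88 and 3.40 in LSD1KO (log2 -2.28 ± 0.29, adjusted p = 7.9e-05). Cacna1s, the skeletal muscle pore, was higher in both LSD1 mutants in FBS cells, with 2.04 and 1.50 CPM in WT, 9.51 and 7.42 in LSD1KO (log2 2.255 ± 0.25, adjusted p = 5.8e-05) and 12.5 and 9.38 in LSD1CI (log2 2.66 ± 0.25, adjusted p = 5.5e-05). It was also higher in RCOR12DKO EBs, at 3.65, 4.64, 4.30 and 3.68 CPM against 0.167 to 1.19 in WT EBs (median 0.270; log2 3.16 ± 0.49, adjusted p = 1.1e-05).

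**Figure D5:**
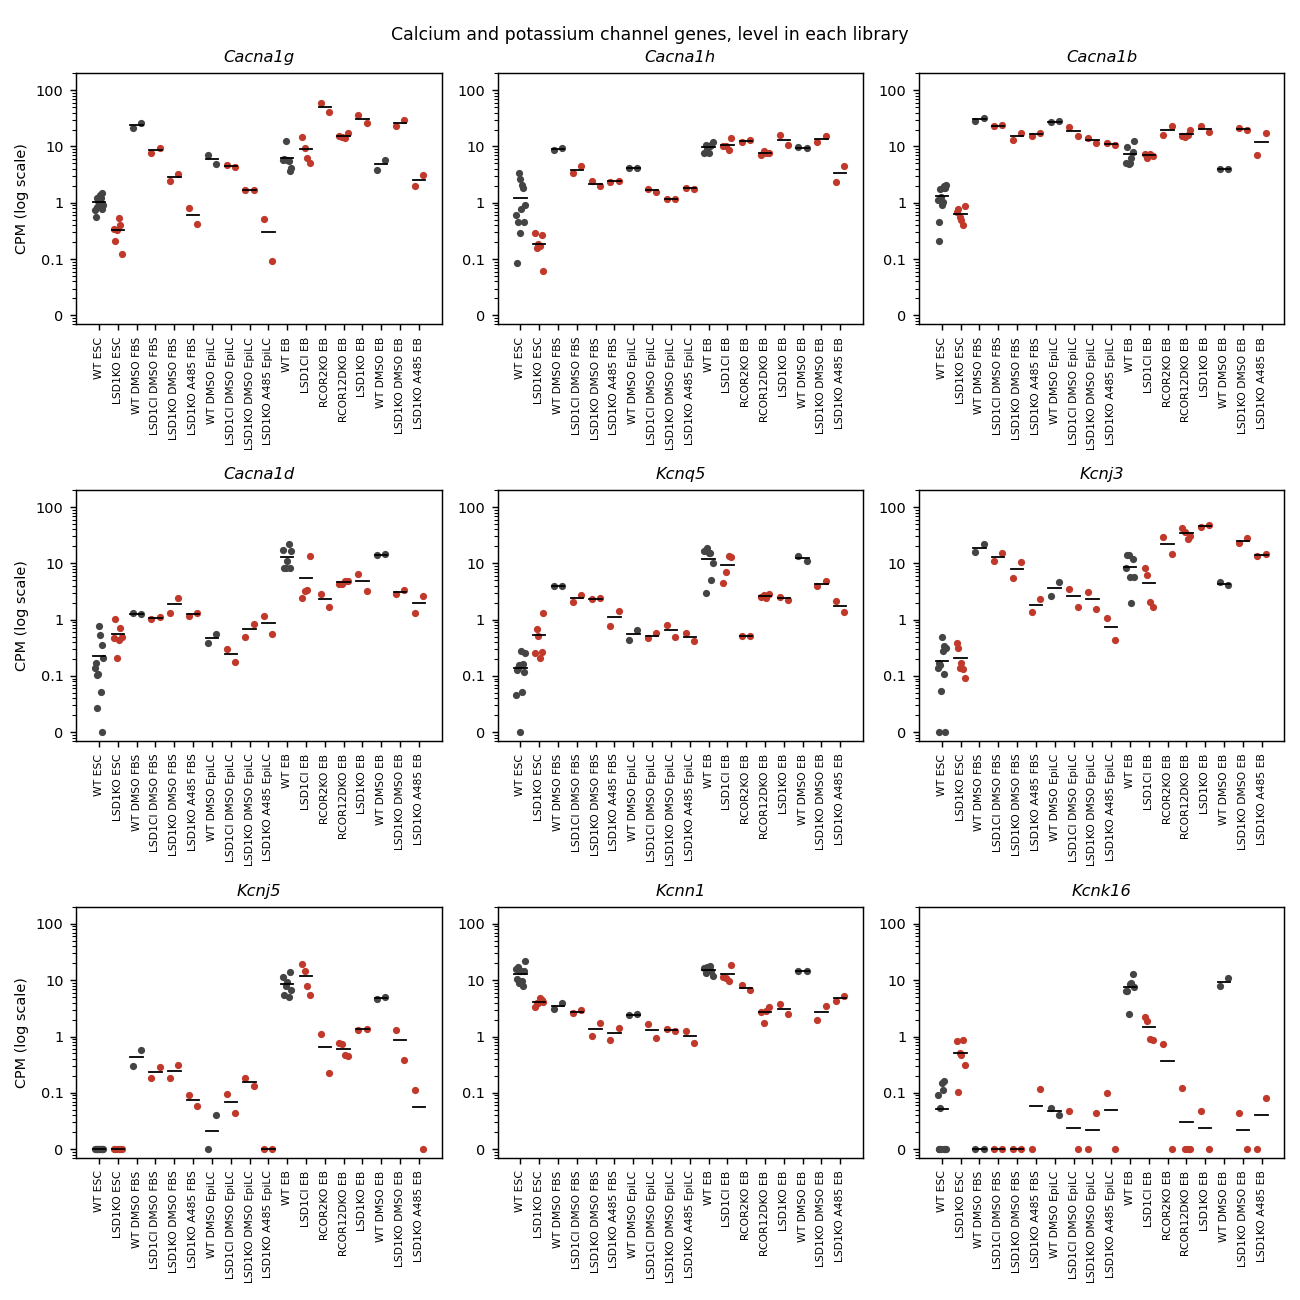
CPM per library (log scale, zeros at the floor marked 0) of Cacna1g, Cacna1h, Cacna1b, Cacna1d, Kcnq5, Kcnj3, Kcnj5, Kcnn1 and Kcnk16 in 18 groups, WT in dark and mutants in red, with a black line at the group mean. Cacna1g lies above WT in RCOR2KO, RCOR12DKO and LSD1KO EBs and below WT in LSD1KO FBS cells and EpiLCs, and Kcnn1 lies below WT in LSD1KO ESCs and in LSD1KO and RCOR12DKO EBs.

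Among calcium channel partners, the gamma subunits Cacng7 and Cacng8, 26.6 kb apart on chromosome 7 (chr7:3332925-3367815 and chr7:3394384-3415366), were higher in many mutants. Both serve as auxiliary subunits of AMPA receptors. Cacng7 held 0.514 to 8.49 CPM in WT ESCs (median 3.69), 18.5 to 27.1 in LSD1KO (median 23.2), 15.3, 14.8, 19.4 and 17.6 in RCOR12DKO and 17.5, 15.7, 20.9 and 21.3 in MLL4LSD1DKO ESCs. LSD1CI ESCs, at 5.04, 3.42, 5.62 and 3.0, lay within the WT range. The log2 changes were 2.51 ± 0.37 (adjusted p = 7.2e-07), 1.83 ± 0.27 (adjusted p = 7.1e-07) and 2.08 ± 0.27 (adjusted p = 1.1e-07). In EBs it went from 12.8 to 26.4 CPM in WT (median 16.3) to 66.3 and 45.2 in LSD1KO (log2 1.63 ± 0.24, adjusted p = 2.8e-05) and 42.7, 45.6, 47.6 and 54.7 in RCOR12DKO (log2 1.37 ± 0.20, adjusted p = 6.5e-06), and in the second set from 10.8 and 10.2 to 40.3 and 52.2 (log2 2.05 ± 0.16, adjusted p = 1.6e-06).

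Cacng8 was near 0 in WT EBs (0.335 to 1.35 CPM, median 0.491) and reached 5.68 and 4.25 in LSD1KO (log2 2.94 ± 0.51, adjusted p = 0.00014) and 5.87, 5.37, 6.50 and 5.22 in RCOR12DKO EBs (log2 3.12 ± 0.44, adjusted p = 4.1e-06). Cacng4, a further gamma subunit of this kind, held 0.405 to 1.65 CPM in WT EBs (median 1.35), 10.4 and 10.4 in LSD1KO (log2 3.10 ± 0.38, adjusted p = 3.7e-06) and 3.89, 2.19, 3.22 and 2.86 in RCOR12DKO EBs (log2 1.30 ± 0.34, adjusted p = 0.0022). All mutant libraries exceeded WT in both genes. A485 lowered Cacng4 in LSD1KO EBs from 6.27 and 7.58 CPM to 1.68 and 2.72 (log2 -1.55 ± 0.32, adjusted p = 0.0028).

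Cacna2d3, an alpha2delta subunit that carries channels to the surface, went down. It held 1.14 to 6.98 CPM in WT EBs (median 3.83), 0.266 and 0.319 in LSD1KO, 0.424 and 0.367 in RCOR2KO and 0.359, 0.133, 0.468 and 0.539 in RCOR12DKO EBs. Every mutant library was below WT. The log2 change was -3.45 ± 0.55 in RCOR12DKO (adjusted p = 1.7e-05) and -3.78 ± 0.77 in LSD1KO (adjusted p = 0.00062, or 0.017 and 0.016 without LSD1KO replicate 1 or 2). Cacnb3 fell with loss of MLL4 in ESCs, from 16.1 to 32.5 CPM in WT (median 18.7) to 7.89 and 5.46 in MLL4KO (log2 -1.71 ± 0.21, adjusted p = 4.2e-08) and 6.00, 7.05, 5.19 and 7.05 in MLL4KOLSD1CI (log2 -1.74 ± 0.16, adjusted p = 1.2e-11). MLL4LSD1DKO ESCs held 11.7, 13.4, 12.5 and 12.4 CPM, between these and WT, and were not called. In LSD1KO EpiLCs A485 moved Cacnb3 from 66.8 and 64.1 CPM to 19.4 and 17.0 (log2 -1.96 ± 0.09, adjusted p = 1.5e-10).

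Voltage-gated potassium alpha subunits were called higher 7 and lower 1 times of 33 in LSD1KO EBs, and 11 and 6 times in RCOR12DKO EBs. Of all genes, 8.28% and 5.42% were called in the first and 14.1% and 12.3% in the second. Kcna1, Kcna2 and Kcna3, delayed rectifiers of the Shaker family found in axons and, for Kcna3, in lymphocytes, were all higher in LSD1KO EBs. Kcna3, chosen here after its values were seen, held 0.233 to 1.12 CPM in WT EBs (median 0.486) and 4.59 and 4.28 in LSD1KO (log2 2.82 ± 0.51, adjusted p = 0.00023), and 0.575 and 0.297 against 3.95 and 5.12 in the second set (log2 3.26 ± 0.41, adjusted p = 6.1e-05). Kcna1 held 0.310 to 1.12 CPM in WT EBs (median 0.631) and 2.47 and 3.29 in LSD1KO (log2 2.12 ± 0.40, adjusted p = 0.00031). Kcna2 was nearly silent in WT EBs, with at most 0.184 CPM, and held 1.93 and 2.85 in LSD1KO (log2 4.65 ± 1.01, adjusted p = 0.0012, or 0.017 without LSD1KO replicate 2). LSD1KO and WT libraries did not overlap in any of the 3. With A485, Kcna1 fell from 2.79 and 3.45 CPM in LSD1KO DMSO EBs to 0 and 0.0400, and Kcna2 from 3.57 and 1.82 to 0.112 and 0.0801. In EpiLCs Kcna1 went the other way with LSD1 loss, from 1.94 and 2.74 CPM in WT to 0.490 and 0.357 (log2 -2.52 ± 0.47, adjusted p = 0.00058, or 0.010 without LSD1KO replicate 2), and Kcna3 from 3.32 and 2.39 to 0.919 and 0.869 (log2 -1.71 ± 0.34, adjusted p = 0.0011).

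The M-current channel Kcnq5 fell in mutant EBs, where WT held 2.97 to 19.0 CPM (median 15.0). RCOR12DKO EBs held 2.55, 2.72, 2.46 and 2.86 (log2 -2.19 ± 0.44, adjusted p = 0.00025), LSD1KO 2.51 and 2.26 (log2 -2.31 ± 0.60, adjusted p = 0.0048) and RCOR2KO 0.515 and 0.508 (log2 -4.59 ± 0.72, adjusted p = 0.00023, or 0.016 without RCOR2KO replicate 2). All were below the lowest WT library. In ESCs Kcnq5 was at most 0.277 CPM in WT and reached 1.25, 1.54, 1.03 and 1.40 in MLL4LSD1DKO (log2 3.09 ± 0.50, adjusted p = 3.1e-06). Kcnd3, a subunit of fast transient potassium currents in heart and brain, nearly vanished from RCOR12DKO EBs, at 0, 0.0663, 0 and 0.340 CPM against 2.66 to 7.31 in WT (median 5.26; log2 -5.55 ± 0.69, adjusted p = 7e-07). In the second set it held 7.36 and 4.62 CPM in WT and 0.773 and 0.431 in LSD1KO EBs (log2 -3.39 ± 0.44, adjusted p = 0.00012), and no count with A485, at least 17.2-fold lower than in DMSO with 3 counts over the group as the floor.

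Kcnh3 kept part of its ESC level in mutant EBs. WT EBs held at most 1.70 CPM, LSD1KO EBs 4.74 and 3.29 (log2 1.86 ± 0.44, adjusted p = 0.0021) and RCOR12DKO EBs 8.96, 7.07, 8.98 and 9.41 (log2 2.93 ± 0.37, adjusted p = 7.8e-07), all above WT EBs. In ESCs it fell from 8.84 to 25.5 CPM in WT to 2.43 and 3.98 in MLL4KO (log2 -2.37 ± 0.35, adjusted p = 1.2e-06) and 2.2496, 4.14, 3.85 and 4.17 in MLL4KOLSD1CI (log2 -2.16 ± 0.25, adjusted p = 6.3e-09). A485 moved LSD1KO ESCs from 17.6 and 16.6 CPM to 4.14 and 4.45 (log2 -2.05 ± 0.14, adjusted p = 2.9e-10). Kcnh4, the EAG-family gene with an RE1 match, moved less evenly. It held 0.319 to 1.80 CPM in WT ESCs (median 0.789) and 0.128, 0.219, 0.108 and 0.229 in RCOR12DKO ESCs (log2 -2.48 ± 0.45, adjusted p = 1.7e-05), yet 0.206 and 0.0988 in WT DMSO EBs and 2.43 and 2.75 in LSD1KO DMSO EBs (log2 3.95 ± 0.52, adjusted p = 9.7e-05).

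Modifier subunits of the Kv6 and Kv9 families, which form channels only together with other pore subunits, showed their own orders. Kcng3 was higher in both LSD1 mutants in FBS cells, with 1.40 and 1.25 CPM in WT, 10.4 and 13.2 in LSD1KO (log2 3.15 ± 0.19, adjusted p = 1.6e-06) and 7.33 and 7.54 in LSD1CI (log2 2.52 ± 0.19, adjusted p = 1.7e-05). In EpiLCs it went from 9.76 and 7.93 CPM in WT to 23.3 and 25.1 in LSD1KO (log2 1.42 ± 0.13, adjusted p = 9.8e-07). Kcns2 was at most 0.491 CPM in WT ESCs (median 0.160), 3.54 and 2.97 in MLL4KO (log2 4.01 ± 0.69, adjusted p = 1.6e-05) and 2.88, 3.52, 1.39 and 2.44 in MLL4KOLSD1CI (log2 3.71 ± 0.61, adjusted p = 4.4e-06), but 0.864, 0.362, 0.345 and 0.324 in MLL4LSD1DKO, where 3 libraries lay within the WT range.

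Kcnc4, a Shaw-family channel for fast repolarization, was the gene called with DOX in DKOLSD1. It held 0.303 to 1.25 CPM in WT ESCs (median 0.390) and 3.28, 5.04, 3.67 and 4.04 in RCOR12DKO (log2 2.55 ± 0.40, adjusted p = 1.1e-06). In DKOLSD1, DOX moved it from 4.03, 5.39, 2.84 and 3.20 CPM to 9.96, 8.70, 9.30 and 9.15, further from WT and without overlap (log2 1.25 ± 0.23, adjusted p = 0.0039). With the replicate block, the adjusted p was 0.000357. The call ended, at an adjusted p of 0.011 to 0.020, without no-DOX replicate 3 or 4 or without DOX replicate 1, 3 or 4. LSD1KO cells, which carry no transgene, held 2.04 and 2.43 CPM without and 3.85 and 4.03 with DOX, also higher but not called.

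Of the potassium channel partners, Kcnip2, a calcium-binding subunit of transient current channels, was higher in mutant EBs. It held 0.672 to 3.54 CPM in WT EBs (median 1.31), 6.26 and 3.59 in LSD1KO (log2 1.62 ± 0.39, adjusted p = 0.0029) and 11, 10.5, 12.9 and 10.8 in RCOR12DKO EBs (log2 2.79 ± 0.33, adjusted p = 3.2e-07). LSD1KO replicate 2 was only just above the highest WT library. A485 lowered it in LSD1KO ESCs from 10.6 and 8.42 CPM to 2.99 and 3.19 (log2 -1.68 ± 0.18, adjusted p = 1.5e-07). Kcnab1 did the reverse in EBs, with 2.40 to 7.45 CPM in WT (median 2.99) and 0.419, 0, 0.0585 and 0.0567 in RCOR12DKO (log2 -4.98 ± 0.64, adjusted p = 1.1e-06), while LSD1KO EBs held 2.59 and 2.41, inside the WT range.

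Calcium-activated Kcnn1, the small-conductance channel SK1 of neurons, was lower in LSD1KO and RCOR12DKO cells of both states. In ESCs it held 7.97 to 21.6 CPM in WT (median 14.3), 3.32 to 4.79 in LSD1KO (median 4.08) and 1.60, 1.64, 2.27 and 2.09 in RCOR12DKO, without overlap. LSD1CI ESCs held 7.92, 4.70, 8.87 and 4.32, part below and part within the WT range, and were not called. The log2 change was -1.89 ± 0.24 (adjusted p = 2.5e-08) in LSD1KO and -2.84 ± 0.25 (adjusted p = 3.3e-12) in RCOR12DKO. In EBs it went from 11.7 to 17.6 CPM in WT (median 16.3) to 3.72 and 2.56 in LSD1KO (log2 -2.28 ± 0.29, adjusted p = 4.5e-06), 8.08 and 6.69 in RCOR2KO (log2 -1.11 ± 0.26, adjusted p = 0.0065) and 2.76, 1.76, 2.84 and 3.40 in RCOR12DKO (log2 -2.53 ± 0.22, adjusted p = 3.8e-09). The second set gave 14.5 and 14.6 CPM in WT and 1.98 and 3.45 in LSD1KO (log2 -2.51 ± 0.28, adjusted p = 2.1e-05).

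The related SK3 gene Kcnn3 changed direction between states. In ESCs it held 0.218 to 0.720 CPM in WT (median 0.527) and 0.858 to 2.26 in LSD1KO (median 1.63), all above WT (log2 1.64 ± 0.45, adjusted p = 0.0028). In EBs it held 4.94 to 16.2 CPM in WT (median 6.37), 2.22 and 1.28 in LSD1KO (log2 -2.27 ± 0.51, adjusted p = 0.0015) and 1.02, 0.630, 0.819 and 0.595 in RCOR12DKO, all below WT (log2 -3.49 ± 0.41). The LSD1KO effect in EBs minus that in ESCs was -3.93 on the log2 scale, past the test. Kcnt2, a sodium-activated channel, went from 2.97 to 6.73 CPM in WT ESCs (median 4.35) down to 1.13, 1.59, 1.59 and 1.46 in RCOR12DKO (log2 -1.87 ± 0.23) and up to 11.6 and 12.8 in MLL4KO (log2 1.26 ± 0.25).

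The inward rectifiers Kcnj3 and Kcnj5, which form the G protein-gated channel of heart and brain, parted in mutant EBs. Kcnj3 held 1.98 to 13.9 CPM in WT EBs (median 8.32), 44.0 and 48.3 in LSD1KO (log2 2.41 ± 0.56, adjusted p = 0.002) and 42.5, 36.0, 27.0 and 30.7 in RCOR12DKO (log2 1.95 ± 0.47, adjusted p = 0.0015). Kcnj5 held 4.97 to 14.1 CPM in WT, 1.31 and 1.38 in LSD1KO (log2 -2.66 ± 0.58, adjusted p = 0.0013) and 0.779, 0.730, 0.468 and 0.454 in RCOR12DKO (log2 -3.83 ± 0.47, adjusted p = 7.2e-07). Neither overlapped WT. Kcnj3 in the second set went from 4.60 and 4.15 CPM to 23.1 and 27.8 (log2 2.45 ± 0.18, adjusted p = 1.1e-06) and Kcnj5 from 4.60 and 5.09 to 1.33 and 0.383 (log2 -2.57 ± 0.58, adjusted p = 0.0039). LSD1CI EBs held 19.8, 14.5, 8.02 and 5.53 CPM of Kcnj5, in or above the WT range.

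In ESCs Kcnj3 depended on the MLL4 genotype. WT held at most 0.491 CPM (median 0.160), MLL4KO 7.34 and 7.52 (log2 4.94 ± 0.60, adjusted p = 3e-08) and MLL4KOLSD1CI 8.88, 8.91, 10.2 and 12.0 (log2 5.42 ± 0.55, adjusted p = 1.8e-10). MLL4LSD1DKO held 0.384, 0.0904, 0 and 0.324, inside the WT range. Kcnj12, a strong inward rectifier of muscle, showed the mirror order, with 7.14 to 16.6 CPM in WT (median 12.8), 3.74 and 1.44 in MLL4KO (log2 -2.46 ± 0.32, adjusted p = 1.5e-07), 4.56, 1.61, 3.32 and 1.55 in MLL4KOLSD1CI (log2 -2.31 ± 0.24, adjusted p = 2.5e-10) and 9.89, 14.4, 12.3 and 7.23 in MLL4LSD1DKO, again inside the WT range. The difference between MLL4LSD1DKO and the other MLL4 mutants was not tested.

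Among 2-pore channels, Kcnk5 kept a high level in RCOR12DKO EBs, at 35.9, 34.1, 38.2 and 34.8 CPM against 8.16 to 11.5 in WT EBs (log2 1.80 ± 0.15, adjusted p = 2.3e-09). It was the other channel that A485 raised in LSD1KO EBs, from 11.8 and 16.0 CPM to 32.2 and 35.1 (log2 1.37 ± 0.18, adjusted p = 0.00013). Kcnk1 was 1 of the 2 channels called lower in LSD1CI EBs, at 14.6, 11, 5.37 and 5.66 CPM against 18.2 to 39.4 in WT (median 30.7; log2 -1.63 ± 0.24, adjusted p = 0.00014). Kcnq3 was the other (log2 -1.30 ± 0.27, adjusted p = 0.0028). A485 lowered Kcnk1 in LSD1KO EpiLCs from 56.6 and 57.2 CPM to 21.4 and 19.3 (log2 -1.59 ± 0.09, adjusted p = 1.4e-09). Kcnk16, the TALK-1 channel of pancreatic islets, held 2.50 to 13.2 CPM in WT EBs (median 7.51) and 5.73, 9.20, 9.21 and 8.80 in RCOR1KO, but 0.0484 and 0 in LSD1KO and 0.120, 0, 0 and 0 in RCOR12DKO EBs. LSD1CI EBs held 2.21, 1.87, 0.905 and 0.861, all below WT and above LSD1KO, and were not called. In the second set WT held 7.77 and 11.1 CPM and LSD1KO 0.0430 and 0. All 7 endoderm markers were called lower in LSD1KO and RCOR12DKO EBs and in LSD1KO EBs of the second set, whereas in LSD1CI EBs 0 of the 7 were (median log2 change 0.27). Their part in the Kcnk16 values was not tested.

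Kcnk6, a 2-pore channel called lower in all 3 MLL4 mutants, held 1.75 to 4.14 CPM in WT ESCs (median 2.57) and 0.607 and 0.767 in MLL4KO (log2 -1.97 ± 0.32, adjusted p = 6.3e-06), 0.961, 1.18, 1.26 and 0.647 in MLL4LSD1DKO (log2 -1.39 ± 0.23, adjusted p = 4.2e-06) and 1.15, 1.04, 1.07 and 1.55 in MLL4KOLSD1CI (log2 -1.12 ± 0.22, adjusted p = 8.5e-05). All mutant libraries lay below WT.

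Other genes of excitability, from a list of 33 symbols of pumps, pacemaker and release channels and channel-binding proteins that includes Scn2a, were counted beside the channels. In LSD1KO EBs 9 were higher and 4 lower of 32 tested, in RCOR12DKO EBs 14 and 2, in RCOR2KO EBs 2 and 4, and in LSD1CI and RCOR1KO EBs 0 and 0. The shares of all genes were 8.28% and 5.42% in LSD1KO, 14.1% and 12.3% in RCOR12DKO and 2.18% and 3.1% in RCOR2KO EBs. Higher in LSD1KO EBs were, among others, Dpp10, a partner of Kv4 channels (log2 4.47 ± 0.68), and Nalcn, a sodium leak channel (log2 3.44 ± 0.44). Lower was Hcn4, the pacemaker channel of the heart (log2 -2.17 ± 0.53). With A485, 7 were higher and 6 lower in EBs, 2 and 8 in FBS cells, 2 and 9 in EpiLCs and 2 and 10 in ESCs, where 4.26% and 9.54%, 3.52% and 9%, 7.43% and 10.2%, and 5.94% and 11.7% of all genes were called.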

How the data were processed

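RNA was sequenced after ribosomal RNA depletion with a stranded kit, as read pairs. The deposited values were raw counts per gene, which the authors made by trimming, aligning to mm9 with STAR 2.7.9a, removing duplicates with Picard 2.25.5 and summing per gene with featureCounts, strand-aware. Even values made up 72.2% to 84.7% of low counts, so mates of a pair appear to be counted separately, which the fitted dispersion absorbs. No 2 libraries of a group agreed within sampling noise. In some groups they fell into closer pairs, by the chi-square per gene between 2 libraries. In LSD1CI ESCs it was 4.45 for replicates 1 and 3 and 4.20 for 2 and 4, against 17.2 to 21.5 across these pairs. In RCOR2KO ESCs the same pairs gave 3.30 and 2.58, against 13.3 to 14.6. The labels name no clones. The tests counted such libraries as independent, so p-values of these groups may be too small.

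Counts were fitted with edgeR 4.0.16 (R 4.3.3): TMM scaling, filterByExpr by group, a robust quasi-likelihood F test and Benjamini-Hochberg adjustment over all genes tested, two-sided, in 9 fits and 29 comparisons. Calls needed both an adjusted p under 0.01 and a log2 fold change beyond 1 in size, after the study's methods. SE was the fold change divided by sqrt(F). Groups of 1 experiment were fitted together, and the 3 fits with WT ESCs carried the alignment term. Levels are CPM of all counts. Members, gene lists and tests were chosen with earlier results of these data known. Genes were named by rule: the 2 highest mean RPKM per class, up to 4 called members per direction and comparison with the largest change, a group mean of 1 CPM and no overlap between libraries, those called in 8 or more comparisons, and the genes nearest the level rule. Kcnj13 and Kcna3 fall outside it. A few channel genes and partners are not reported here by name, and counts over the members still hold them. DESeq2 1.42.0, scaling, filter, WT subsets, blocks and left-out replicates were tried as alternatives, those on WT EB subsets chosen after seeing the data. Replicate numbers paired samples in the DOX comparisons of LSD1Res (correlations 0.657 to 0.705) and DKOLSD1 (0.585 to 0.658), judged from the libraries' deviations from the group means. The fits were tested on simulated counts. The motif search used mm9 with the gene starts given with the deposited counts.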

Additional observations from a re-analysis of the deposited data

Results flagged for a closer look

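For 18 channel genes called in 8 or more comparisons, 179 pairs of a gene and a group of 4 to 10 libraries were searched for a library far from the others, and 9 were found, where chance gives about 5% of groups. Cacna1g stood at 8.04 CPM in RCOR1KO EB replicate 1 and at 12.8 CPM in WT EB replicate 3, each above its group. Kcnq3 stood at 5.49 CPM in RCOR1KO EB replicate 3, below its group. In RCOR12DKO ESCs Kcng3 was high in replicate 4 (3.64 CPM) and Kcnip2 in replicate 3 (6.56 CPM), and in RCOR12DKO EBs Scn9a was high in replicate 2 (33.5 CPM). Kcnh3 was low in MLL4KOLSD1CI ESC replicate 1 (2.2496 CPM), Scn2b was low in LSD1CI ESC replicate 2 (2.89 CPM), and Kcnn1 was high in DKOLSD1 without DOX replicate 1 (1.94 CPM).

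The effect of LSD1KO against WT differed between EBs and ESCs for 14 channel genes by a test of the difference itself (adjusted p below 0.01), a share of 14% against 12.9% of all genes, and 13 of them are given here. On the log2 scale, the effect in EBs minus that in ESCs was 10.12 for Kcna2, 5.75 for Kcnh8, 5.45 for Scn1a, 3.71 for Cacna1g, 3.22 for Cacng4, 3.19 for Scn3a, 2.76 for Kcnh3, 1.81 for Kcnh2 and 1.63 for Cacna1a. It was -3.93 for Kcnn3, -4.10 for Kcnd3, -4.55 for Kcnq5 and -12.14 for Kcnk16. The values of Kcna2 and Kcnk16 rest on groups with almost no counts and depend on the prior count of the fit.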

How the results depend on the processing

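Of 145 named pairs of a gene and a comparison, 1394 values were recomputed: 1222 kept direction and call, 172 kept direction without the call, and 0 reversed. The pairs had been chosen as called and without overlap between libraries, and the alternatives used the same libraries. A reversal was thus hardly possible, and its absence is no test of the directions. Keeping genes at 2 CPM gave 84 channels, without Rn45s 102 and with TMM scaling 97. The cause of the moves below was not tested, beyond the smaller number of libraries in some settings.

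Counts of called channels that moved by over 1.5 times were these. With DESeq2, LSD1CI ESCs gave 10, RCOR2KO ESCs 7, RCOR1KO ESCs 4, LSD1KO against LSD1CI ESCs 13, LSD1CI EBs 6 and DOX in LSD1Res 4. With no alignment term, LSD1KO ESCs gave 36, LSD1CI ESCs 7, LSD1KO against LSD1CI ESCs 21, and the difference between LSD1KO effects 23. With no filter on low counts, LSD1CI gave 9 in FBS cells and 3 in EpiLCs. With only the compared groups in the fit, LSD1CI ESCs and RCOR2KO ESCs gave 1 each, RCOR12DKO ESCs 15, MLL4KO ESCs 11, RCOR2KO EBs 2 and DOX in LSD1Res 0. That fit was not run for LSD1KO against LSD1CI ESCs, where alignment and genotype cannot be told apart. Against WT ESC 4, 5, 8 and 9 alone, RCOR2KO gave 17, MLL4LSD1DKO 29 and MLL4KOLSD1CI 38. Against WT ESC 6 and 7 alone, LSD1CI gave 15, RCOR2KO 1 and RCOR1KO 10, and against WT ESC 10 and 11 alone 15, 8 and 17. Against WT EB 1 to 3 alone, chosen after seeing the data, LSD1CI EBs gave 11 and RCOR1KO EBs 6, with LSD1KO at 25, RCOR2KO at 13 and RCOR12DKO at 45. Against WT EB 4 to 7 alone, RCOR2KO EBs gave 30, with LSD1KO at 36, LSD1CI at 2, RCOR1KO at 0 and RCOR12DKO at 52.

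A replicate block was fitted throughout, though outside the LSD1Res and DKOLSD1 comparisons pairing was not shown and the block removes residual degrees of freedom. Comparisons with 2 pairs were too small for the pairing rule, and their correlations reached 0.555, in the DOX comparison of LSD1KO. With the block, LSD1KO ESCs gave 9, LSD1CI ESCs 0, RCOR2KO ESCs 2, RCOR12DKO ESCs 4, MLL4LSD1DKO and MLL4KOLSD1CI ESCs 3 each, LSD1KO against LSD1CI ESCs 13, LSD1CI EBs 0, RCOR2KO EBs 7, the difference between LSD1KO effects 7 and LSD1CI EpiLCs 4. Block fits held only the compared groups and their shared replicate numbers. The 13 therefore come without an alignment term, so that alignment and genotype cannot be told apart in them. LSD1CI, RCOR and MLL4 ESCs met at most WT ESC 1 to 4, of which only WT ESC 4 is aligned like them. MLL4KO met WT ESC 1 and 2 alone, neither of which is. Where the numbers pair the samples, the block gave 3 in LSD1Res and 1 in DKOLSD1 and kept the calls of Scn9a and Kcnc4.

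Leaving out 1 library at a time, where a lone library is taken to vary like the other groups, gave these ranges. ESCs: LSD1CI 1 to 4, LSD1KO against LSD1CI 7 to 9, RCOR2KO 2 to 4, RCOR1KO 0 to 0, RCOR12DKO 22 to 24, MLL4KO 12 to 16, MLL4LSD1DKO 14 to 19 and MLL4KOLSD1CI 21 to 23. EBs: LSD1KO 16 to 18, LSD1CI 1 to 3, RCOR2KO 2 to 10, RCOR1KO 0 to 0, RCOR12DKO 41 to 47, LSD1KO against LSD1CI 14 to 33, the difference between LSD1KO effects 10 to 11 and LSD1KO DMSO EBs 26 to 32. FBS cells: LSD1KO 9 to 12 and LSD1CI 2 to 4. EpiLCs: LSD1KO 8 to 14 and LSD1CI 0 to 2. A485: EBs 11 to 25, EpiLCs 14 to 18, ESCs 13 to 16 and FBS cells 13 to 15. DOX: LSD1Res 1 to 4, DKOLSD1 0 to 1 and LSD1KO 0 to 0. At 1 CPM a value rests on 17.2 to 58.2 counts, so changes of channels near or under that level are measured least well.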
